A study of Rattus norvegicus with 22 samples.

Results

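The genes described here encode the nuclear subunits of respiratory complexes I, III and IV and of ATP synthase (complex V). They were taken from a table of 24286 genes by symbol, as every protein-coding nuclear gene whose name begins with Nduf and a letter for a structural subunit, with Uqcr, with Cox and a subunit number, or with Atp5, and the Ndufaf assembly factors were left out. The rule found 83 rows under 79 symbols, of which 39 belong to complex I, 9 to complex III, 18 to complex IV and 17 to complex V. Their RNA was measured by RNA sequencing in 22 libraries of rat fat. All rats are labelled as wild type, all samples carry the same treatment text with streptozotocin (a toxin of insulin-producing cells, 30 mg/kg) and all titles give 4 months. Visceral fat of the mesentery gave 6 libraries from rats with a duodenal-jejunal bypass (DJB, intestinal surgery after which food skips the duodenum; treatment label HFD+DJB, HFD being a high-fat diet) and 6 libraries from type 2 diabetic rats without the operation in their label (T2DM; treatment label HFD). Subcutaneous fat of the groin gave 5 DJB and 5 T2DM libraries with the same labels. No sham-operated or healthy group is labelled, so DJB minus T2DM can include effects of surgery and feeding. The labels do not say that the libraries of a group came from separate rats, and p-values therefore measure the spread between libraries, which may be technical. They also do not say whether the 2 depots came from the same rats, and the main fit treats all libraries as unpaired.

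Complex I takes electrons from NADH, complex III passes them to cytochrome c, complex IV gives them to oxygen, and all of them pump protons across the inner mitochondrial membrane; ATP synthase lets the protons return and makes ATP. Each complex combines subunits encoded in the nucleus with a few encoded in mitochondrial DNA, apart from complex II, which is wholly nuclear. White fat cells hold few mitochondria, and brown or thermogenic fat cells hold many and carry the uncoupling protein Ucp1. Transcription of the nuclear subunits is known to draw on the factors NRF1, GABPA, YY1 and ERRA (gene Esrra) and on the coactivator PGC-1 alpha (gene Ppargc1a).

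Total counts lay between 58976705 and 88829000 in the visceral DJB libraries, between 58951508 and 79629743 in visceral T2DM, between 46824314 and 76835895 in subcutaneous DJB and between 49155556 and 83319267 in subcutaneous T2DM. The members together took 0.308% to 0.445% of the counts in visceral DJB libraries, 0.327% to 2.05% in visceral T2DM, 0.279% to 0.482% in subcutaneous DJB and 0.354% to 0.402% in subcutaneous T2DM. The largest shares, 2.05% and 1.52%, were those of visceral T2DM libraries 2 and 5, and these libraries recur in the results below. All 10 adipocyte markers had counts in each of the 22 libraries, but their summed level in subcutaneous DJB library 2 was 530.0 CPM (counts scaled to a common library size with trimmed-mean factors), against 3261 to 58410 in the other libraries. Markers of mammary alveolar cells, mostly milk protein genes, summed to 651 to 93150 CPM in subcutaneous DJB libraries. In subcutaneous T2DM libraries they summed to 517 to 179600 CPM, against 591 CPM at most in visceral fat.

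Of the 83 members, 79 had at least 1 FPKM (fragments scaled by gene length and library size, the unit in which genes of different length can be compared) in at least 5 libraries and were tested. Their mean FPKM over the 22 libraries had a median of 50.0, against 8.18 for all 14019 tested genes. By complex the median over all rows was 36.5 FPKM in complex I, 68.3 in complex III, 85.1 in complex IV and 110 in complex V. The highest level, 418 FPKM, was that of Atp5f1b, the catalytic beta subunit of ATP synthase, followed by Cox4i1, the regulatory subunit 4 of cytochrome c oxidase, with 397 FPKM and by Atp5f1a, the alpha subunit of ATP synthase, with 219 FPKM. In complex III the core subunit Uqcrc2 (96.8 FPKM) and the Rieske iron-sulfur protein Uqcrfs1 (95.3 FPKM) led. In complex I Ndufa4 led with 115 FPKM; it is grouped here by its name, although its protein is now assigned to complex IV. The implied gene lengths, taken from the ratio of FPKM to count, were short. Their median was 711 bases, against 2289 bases for all tested genes. An implied length need not be that of the transcript present in the tissue.

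The 300 bases around the transcription start were looked up in RefSeq (build GRCr8; 250 bases before the start and 50 after it) for the 79 symbols, and 68 were found. In these, 6 short motifs known from promoters of such genes were searched on both strands: GCGCATGC (NRF1), CCGGAAGT (GABPA, an ETS motif), AAGATGGCG (YY1), AAGGTCA (ERRA), TGACGTCA (CREB) and GGGGCGGGG (SP1). The NRF1 motif was in 8 of the 68 promoters (11.8%), against 2.77% of the promoters of all 27457 symbols in the RefSeq set. The GABPA motif was in 8 (11.8%), against 4.2%, the YY1 motif in 9 (13.2%), against 1.99%, and the ERRA motif in 9 (13.2%), against 4.83%. The CREB motif was in 2 (2.94%), against 2%, and the SP1 motif in 3 (4.41%), against 10.9%. NRF1 motifs on the 2 strands overlapped by 6 bases in Atp5mc2, Atp5me, Atp5po and Ndufa11. The promoters of 4 members are shown because, of the called members with the smallest p-values or the largest fold changes in visceral fat, these hold at least 1 of the motifs; capitals mark the matches. Cox8a has GABPA matches whose first base is at -58 and at -20 from the start, 1 CREB match at -76 and 1 ERRA match at 11. Uqcrq has a GABPA match at -22 and an ERRA match at -145, Cox5b a GABPA match at -14, and Atp5f1e an ERRA match at -21. A match is a description of the letters and not a binding site shown to be used.
Cox8a, chr1:213833574-213833873, minus strand: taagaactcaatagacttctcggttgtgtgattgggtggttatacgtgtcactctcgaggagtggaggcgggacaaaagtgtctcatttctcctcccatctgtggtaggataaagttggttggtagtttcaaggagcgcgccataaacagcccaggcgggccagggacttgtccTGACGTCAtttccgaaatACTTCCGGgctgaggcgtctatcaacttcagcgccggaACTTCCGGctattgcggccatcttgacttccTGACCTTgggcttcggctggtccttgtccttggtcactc
Uqcrq, chr10:38089929-38090228, minus strand: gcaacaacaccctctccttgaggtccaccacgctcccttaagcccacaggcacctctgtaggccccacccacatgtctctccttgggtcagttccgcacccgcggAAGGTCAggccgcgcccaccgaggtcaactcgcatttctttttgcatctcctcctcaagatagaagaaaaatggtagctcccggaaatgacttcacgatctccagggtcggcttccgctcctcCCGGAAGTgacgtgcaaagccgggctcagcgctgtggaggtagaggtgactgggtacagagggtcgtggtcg
Cox5b, chr9:46417587-46417886, plus strand: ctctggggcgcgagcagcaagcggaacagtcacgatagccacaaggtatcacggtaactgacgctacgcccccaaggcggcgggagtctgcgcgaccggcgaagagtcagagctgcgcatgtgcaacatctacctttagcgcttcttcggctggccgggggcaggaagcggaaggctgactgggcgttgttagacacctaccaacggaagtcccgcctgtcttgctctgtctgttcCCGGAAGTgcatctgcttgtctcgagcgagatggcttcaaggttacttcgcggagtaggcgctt
Atp5f1e, chr3:183680123-183680422, minus strand: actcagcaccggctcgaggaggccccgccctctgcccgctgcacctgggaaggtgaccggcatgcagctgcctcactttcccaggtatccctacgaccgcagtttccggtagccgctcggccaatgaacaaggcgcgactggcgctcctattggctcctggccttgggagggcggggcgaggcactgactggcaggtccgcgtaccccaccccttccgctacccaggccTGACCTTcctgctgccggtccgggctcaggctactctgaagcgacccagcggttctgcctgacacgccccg

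In visceral fat, the members were lower after bypass than in T2DM. Of the 79 tested, 64 fell at an adjusted p of 0.05 (edgeR's quasi-likelihood test, Benjamini-Hochberg adjustment over 14019 genes), none rose, and all 79 log2 fold changes were negative. Lower calls made up 4.27% of all tested genes. The median log2 fold change of the members was -1.96, with a range of -4.13 to -0.18, against -0.03 over all tested genes. All 9 tested members of complex III fell (median -2.07), as did 34 of 39 in complex I (-1.90), 11 of 14 in complex IV (-2.44) and 10 of 17 in complex V (-1.61). DESeq2 called 71, with 8.87% of all tested genes lower, and limma on log2(FPKM + 1) called 0. Atp5f1e, Atp5if1 and Atp5mc1 were given no p-value by DESeq2, so it could not call them. In bulk tissue, fewer cells of a type and less RNA per cell cannot be told apart.

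The T2DM libraries were unequal. The median level of the tested members was 4.64 ± 0.19 log2 CPM in visceral DJB (SD, n = 6) and 5.92 ± 1.55 in visceral T2DM (n = 6). In T2DM libraries 1 to 6 it was 4.47, 8.40, 4.88, 5.06, 7.21 and 5.52 log2 CPM, while the 6 DJB libraries lay between 4.44 and 5.01. Libraries 2 and 5 were the 2 highest of the 12 visceral libraries for 73 of the 79 members. Of the 79, 77 were above every DJB library in T2DM library 2 and 77 in library 5, against 66 in library 6, 34 in library 3, 32 in library 4 and 1 in library 1; in library 1, 20 members were below every DJB library. No member had all DJB libraries below all T2DM libraries, a pattern held by 0.485% of all tested genes.

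**Figure D1:**
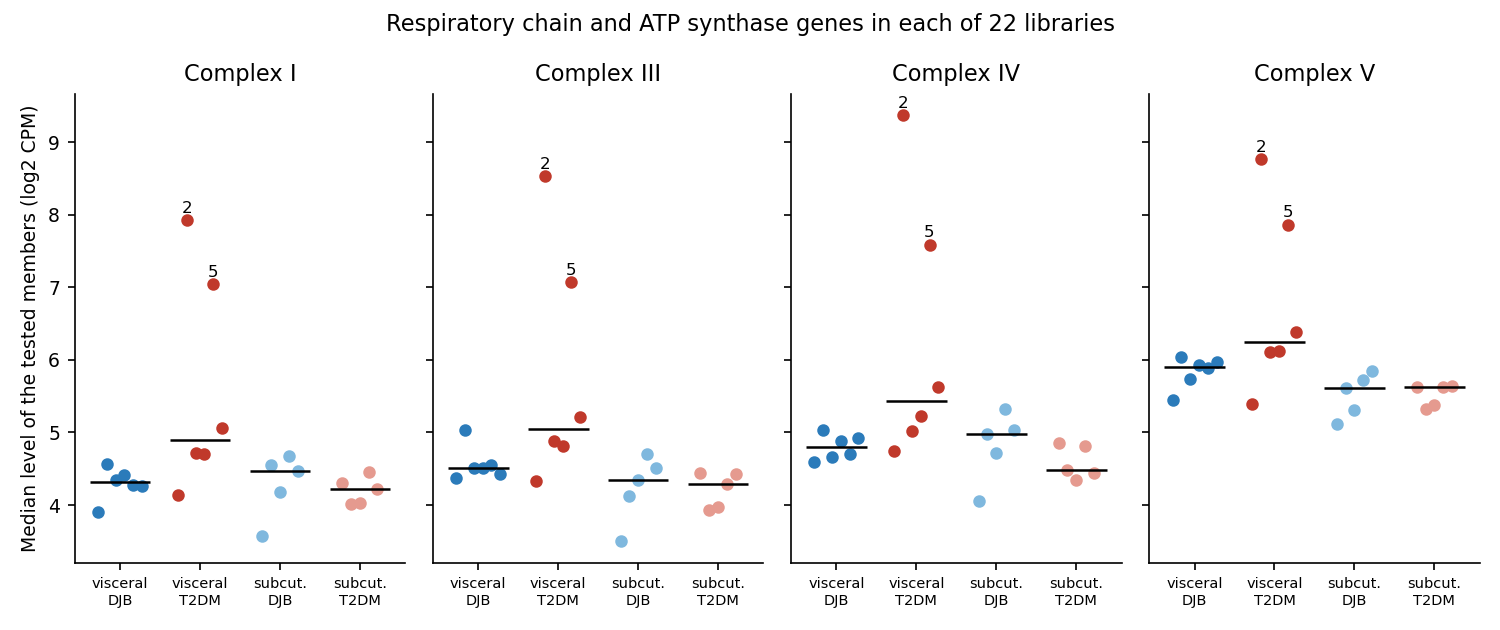
Median level (log2 CPM) of the tested members of complexes I, III, IV and V in each of the 22 libraries, 1 point per library, with the group median as a bar and visceral T2DM libraries 2 and 5 numbered. In every complex these libraries sit above all others, at 7.93 and 7.04 log2 CPM in complex I and at 9.38 and 7.59 in complex IV.

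The call rested on single libraries. Without visceral T2DM library 2 no member was called (median log2 fold change -1.10; 0.464% of all tested genes fell). Without library 5 there were 6 calls (-1.87; 1.12% of all tested genes fell), of Uqcr10, Uqcrq, Cox5b, Cox7b, Cox8a and Atp5f1e. Without both, no member was called, 16 had an unadjusted p under 0.05 (beside 9.72% of all tested genes), 73 of 79 log2 fold changes were negative, and their median was -0.31, with a smallest adjusted p of 0.209. The count was also 0 without any 1 of visceral DJB libraries 1, 2, 3, 5 and 6, and 34 without DJB library 4 (2.89% of all tested genes); over all 22 libraries left out in turn it ran from 0 to 74.

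**Figure D2:**
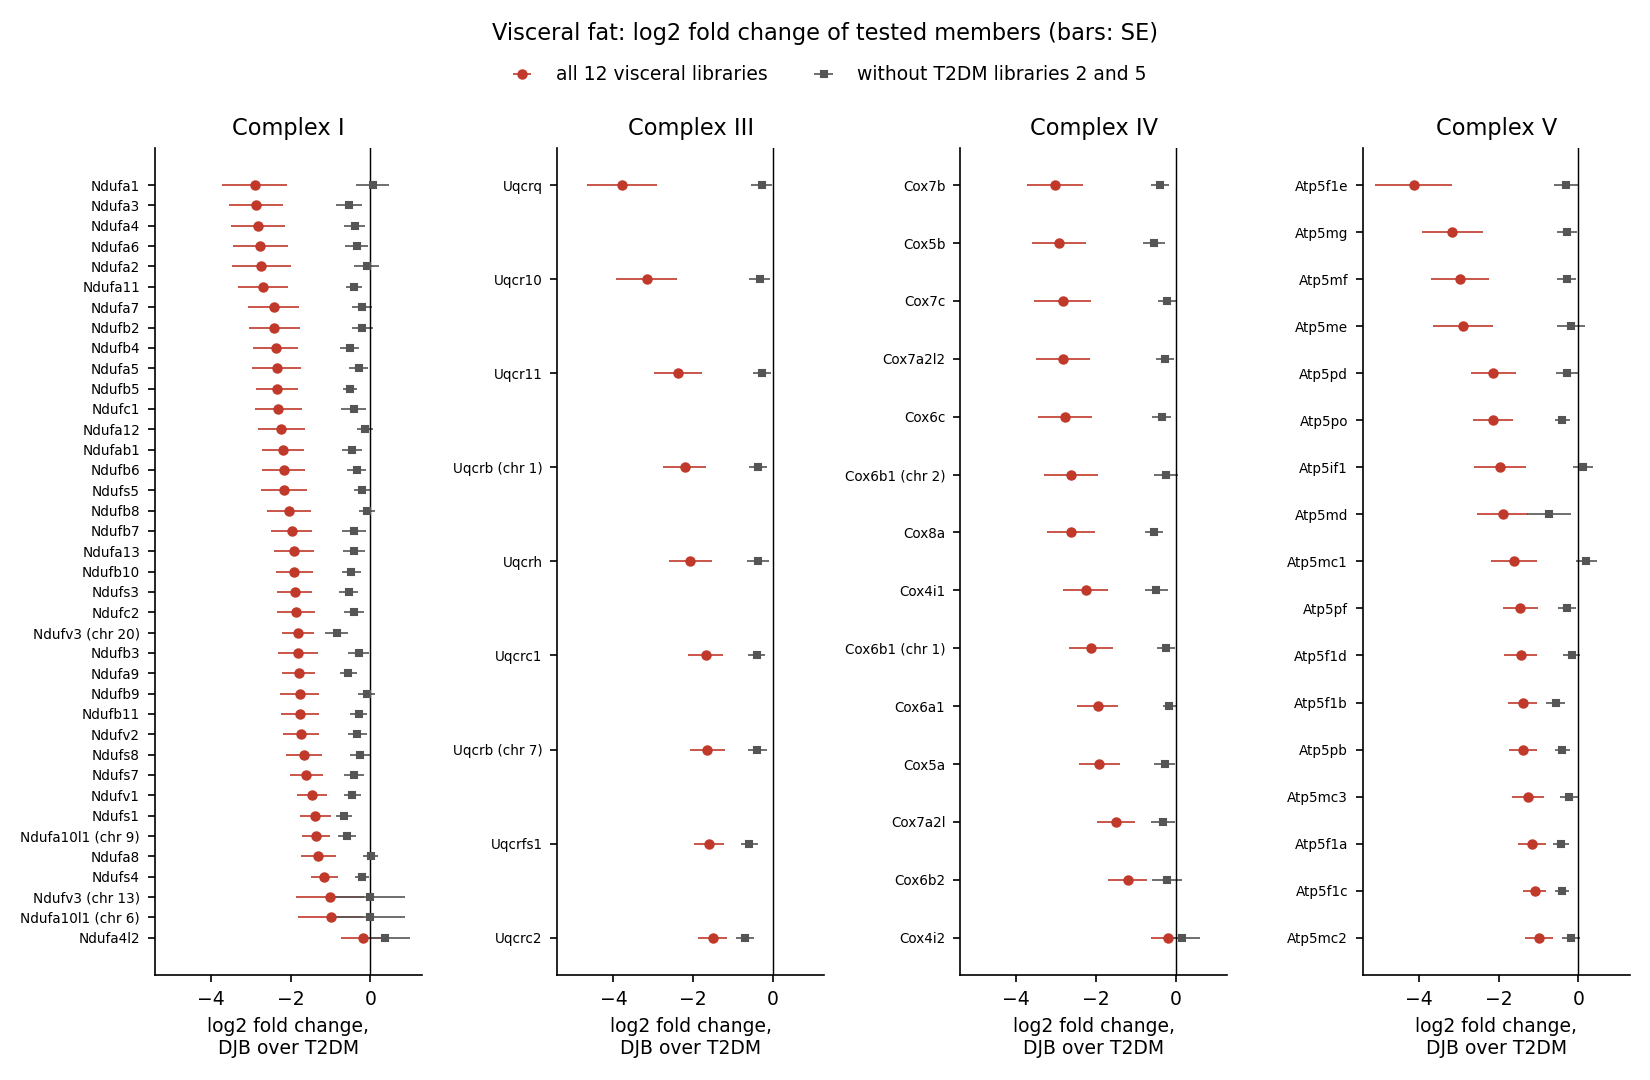
Log2 fold change (DJB over T2DM) of 78 of the 79 tested members in visceral fat, with bars of 1 standard error, from all 12 visceral libraries (circles) and without T2DM libraries 2 and 5 (squares). All 78 circles lie below 0, and most squares lie nearer to 0, with a median over all 79 of -0.31 against -1.96.

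Complex I fell in its core and in its accessory subunits. The smallest p among its members was that of Ndufv3 on chromosome 20, a small subunit of the NADH-oxidising module; a second row of the same symbol is on chromosome 13, so reads may be split between copies. Its level was 34.7 to 73.4 CPM in DJB libraries (median 55.6), against 46.6, 348, 121, 80.0, 391.7 and 130.1 CPM in T2DM libraries 1 to 6. The groups overlapped through T2DM library 1, and the log2 fold change was -1.82 (SE 0.40; adjusted p = 0.0329, edgeR). Ndufb5, an accessory subunit of the membrane arm, had 14.5 to 21.2 CPM in DJB libraries (median 17.9), against 18.8, 307, 26.9, 28.0, 132 and 27.2 CPM in T2DM libraries, and fell with a log2 fold change of -2.34 (adjusted p = 0.0329, SE 0.53). T2DM library 1 lay within the DJB range and the other 5 above it. Ndufa4 fell by 2.83 on the log2 scale (adjusted p = 0.0329).

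Most of the core subunits in the arm of complex I that takes up NADH fell as well. The log2 fold changes were -1.47 for Ndufv1, which binds NADH, -1.74 for Ndufv2, -1.90 for Ndufs3, -1.60 for Ndufs7 and -1.66 for Ndufs8. Ndufs1, the largest iron-sulfur subunit, was unlike the others, with 56.0 to 111 CPM in DJB libraries (median 74.7), against 80.4, 85.0, 144, 145, 640 and 117 CPM in T2DM libraries 1 to 6. Library 2 was within the DJB range and library 5 far above it. It fell with a log2 fold change of -1.38 (adjusted p = 0.0495, SE 0.39), and without T2DM libraries 2 and 5 the value was -0.66 (adjusted p = 0.209). Members of complex I that did not pass included Ndufa8 (-1.31; adjusted p = 0.0808), the rows of Ndufa10l1 on chromosome 6 (-0.9985) and of Ndufv3 on chromosome 13 (-1.01), and Ndufa4l2 (-0.18; adjusted p = 0.881).

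In complex III, Uqcrq, a small subunit that lies against cytochrome b, had the lowest fold change. It had 8.33 to 18.7 CPM in DJB libraries (median 14.6), against 12.9, 980, 14.2, 17.0, 122 and 24.2 CPM in T2DM libraries 1 to 6, with a log2 fold change of -3.78 (adjusted p = 0.0329, SE 0.87). Libraries 2, 5 and 6 were above the DJB range and libraries 1, 3 and 4 within it. Uqcr10, another small subunit, had 7.59 ± 1.61 CPM in DJB and 68.2 ± 127 CPM in T2DM (SD, n = 6 each; log2 fold change -3.17, SE 0.76). The larger subunits showed smaller differences. Uqcrc2, a core protein, had 103 to 179 CPM in DJB libraries (median 126), against 138, 354, 273, 226, 1058 and 212 CPM in T2DM libraries 1 to 6, with a log2 fold change of -1.52 (adjusted p = 0.0329, SE 0.36); here library 5 and not library 2 was the highest. Uqcrc1, the other core protein (-1.69), and Uqcrfs1 (-1.60) fell too, as did both rows of Uqcrb, whose reads may be split between chromosomes 1 and 7.

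In complex IV the zinc-binding subunit Cox5b had 15.3 to 22.3 CPM in DJB libraries (median 20.9), against 18.4, 609, 26.0, 33.2, 192 and 38.2 CPM in T2DM libraries 1 to 6. All T2DM libraries but the first were above every DJB library, and the log2 fold change was -2.93 (SE 0.67; adjusted p = 0.0329). Cox8a, a small membrane subunit, had 22.1 to 29.5 CPM in DJB libraries (median 24.9), against 24.8, 637, 35.4, 36.3, 162 and 52.7 CPM in T2DM libraries, with a log2 fold change of -2.62 (adjusted p = 0.0329, SE 0.60); again 5 of the 6 T2DM libraries were above the DJB range. Both genes' promoters hold the GABPA letters shown above. Cox4i1 had 140 to 306 CPM in DJB libraries (median 184), against 151, 3086, 308, 225, 1387 and 398 CPM in T2DM libraries (log2 fold change -2.25, SE 0.56; adjusted p = 0.0333). Cox5a (-1.91), Cox6a1 (-1.96), Cox6c (-2.77) and Cox7b (-3.02) also fell. Not called were Cox7a2l, which joins complexes III and IV (-1.50; adjusted p = 0.0717), Cox6b2 (-1.20; adjusted p = 0.153) and Cox4i2 (-0.19; adjusted p = 0.830).

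In ATP synthase the members ran from the lowest fold change of all to several that did not pass. Atp5f1e, the small epsilon subunit of the central stalk, had 16.8 to 32.0 CPM in DJB libraries (median 21.7), against 19.6, 2126, 20.04, 23.9, 124 and 46.5 CPM in T2DM libraries 1 to 6. Only libraries 2, 5 and 6 were above the DJB range, and the log2 fold change was -4.13 (SE 0.97; adjusted p = 0.0329); without libraries 2 and 5 it was -0.30 (adjusted p = 0.835). Atp5mg, a membrane subunit, fell by 3.16 on the log2 scale (adjusted p = 0.0333). Atp5f1b had 477 to 793 CPM in DJB libraries (median 615), against 549, 1999, 1161, 909, 4255 and 1099 CPM in T2DM libraries (log2 fold change -1.40, SE 0.37; adjusted p = 0.0378); library 1 was within the DJB range, and library 5 was the highest. The gamma subunit Atp5f1c (-1.09) and the stalk subunit Atp5po (-2.13) fell. The alpha subunit Atp5f1a (-1.16; adjusted p = 0.0541), the coupling factor Atp5pf (-1.45; 0.0553), the 3 genes of subunit c and Atp5md (-1.90; 0.0851) did not pass, nor did the inhibitor Atp5if1 (-1.96; adjusted p = 0.0840).

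The 2 high libraries differed from each other in which members stood out. For each member, its log2 level in a library was set against its own median over the 22 libraries. The median elevation of the 79 members was 3.72 in T2DM library 2 and 2.54 in library 5, against 0.67 in library 6, 0.33 in library 4, 0.24 in library 3 and -0.18 in library 1. In library 2 the elevation ran from 0.22 for Ndufs1 to 6.61 for Atp5f1e, and 63 members were higher than in library 5. It fell with implied gene length (Spearman rho -0.72 over 79 members, and -0.53 over all tested genes in that library). In library 5 the elevation ran from 0.12 for Atp5if1 to 3.40 for Uqcrc1, with rho 0.21 over the members and -0.41 over all tested genes. These correlations are across genes of 1 library, which are not independent replicates. For the shortest 26 members (222 to 539 bases) the median elevation was 4.73 in library 2 and 2.51 in library 5; for the longest 26 (985 to 7662 bases) it was 2.26 in library 2 and 2.63 in library 5.

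**Figure D3:**
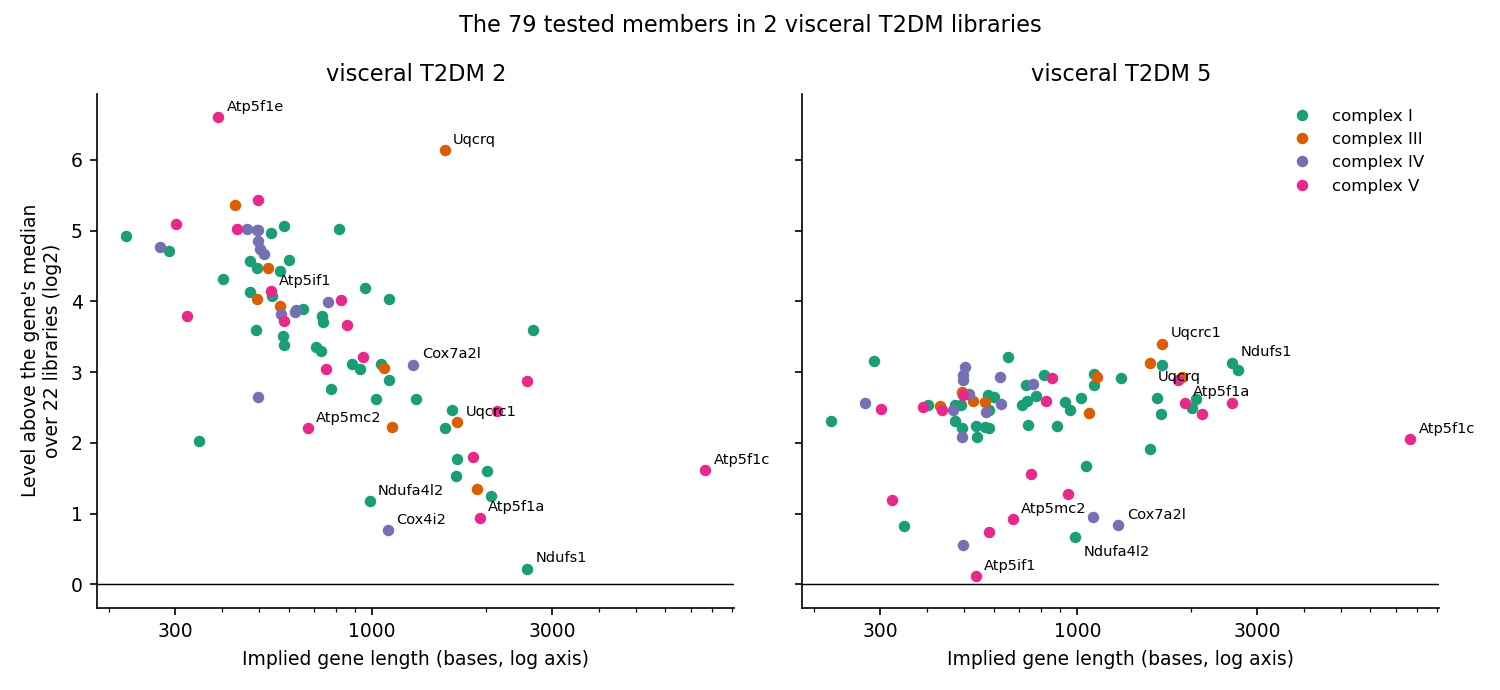
Level of each of the 79 tested members in visceral T2DM library 2 (left) and library 5 (right) above the member's own median over 22 libraries (log2), against implied gene length (bases, log axis), coloured by complex. In library 2 the points fall with length (rho -0.72), whereas in library 5 most lie between 2 and 3.40 at all lengths, with a lower group that includes Atp5if1, Atp5mc2 and Cox7a2l.

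The fold changes followed length in the same way, with rho 0.65 between log2 fold change and length over the 79 members and 0.36 over all tested genes. The median log2 fold change was -2.69 for the shortest 26 members, of which 22 fell, and -1.45 for the longest 26, of which 19 fell. When the trend of each library's log ratios with length was removed before testing, 29 of the 79 members fell (13 of complex I, 6 of III, 4 of IV and 6 of V), 77 were negative, and the median was -1.16; 2.67% of all tested genes fell in that fit. Uqcrq departed from the trend with implied length: at 1556 bases its elevation in library 2 was 6.14. Whether that length holds for the transcript present was not tested. The part of RNA fragment size or quality in these values was not tested.

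In library 5, 66 members were at least 2 log2 units above their own median, and 13 were below that. Of the 13, 6 belong to ATP synthase: the inhibitor Atp5if1 (0.12), the subunit c genes Atp5mc1 (0.74), Atp5mc2 (0.92) and Atp5mc3 (1.56), and Atp5md (1.19) and Atp5pf (1.29). Another 3 belong to complex IV, namely Cox6b2 (0.56), Cox7a2l (0.84) and Cox4i2 (0.95), and 4 to complex I, among them Ndufa4l2 (0.67) and Ndufa8 (1.67). No complex III member was among them. In library 2 most of these genes were well above their medians, with 4.14 for Atp5if1, 3.72 for Atp5mc1 and 3.11 for Cox7a2l, while Ndufa4l2 (1.18) and Cox4i2 (0.77) were low there too. The threshold of 2 was chosen after the values were seen.

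Markers of several cell types differed between the visceral groups too, though not all in libraries 2 and 5. The 10 markers of brown or thermogenic fat cells, of which 5 were tested, summed to 35.4 to 62.8 CPM in visceral DJB libraries, against 79.7, 401, 222, 545, 5285 and 78.4 CPM in T2DM libraries 1 to 6. Between 1 and 4 of the 10 were at 0 in each DJB library, and 1 or 2 in each T2DM library. Cidea, Cpt1b, Fabp3 and Pank1 fell; Ucp1 did not pass (adjusted p = 0.0556) and was at 0 to 7.90 CPM in DJB libraries, against 2944 CPM in T2DM library 5, 265 in library 4 and 77.3 in library 2. The 10 adipocyte markers summed to 8035 to 16860 CPM in DJB libraries and 11930 to 58410 CPM in T2DM libraries, with 58410 in library 2 and 32750 in library 5, and none was called (median log2 fold change -1.26). All 8 epithelial markers fell (median log2 fold change -5.54), with a summed level of 7.29 to 24.6 CPM in DJB libraries, against 1296, 2384 and 1554 CPM in T2DM libraries 2, 3 and 4 and 23.5 CPM in library 5. The 5 tested markers of urothelium, the lining of the bladder, fell too (median -7.75), with 0.961 to 8.56 CPM in DJB libraries, against 1186, 1070 and 721 CPM in T2DM libraries 2, 3 and 4 and 7.40 CPM in library 5. Without T2DM libraries 2, 3 and 4, a choice made after the data were seen, no member was called and the median was -1.47. The 9 skeletal muscle rows summed to 4.84 to 19.0 CPM in DJB and 9.33 to 48.6 CPM in T2DM, and the 4 cardiac markers to at most 0.618 CPM in DJB and 2.36 CPM in T2DM. Liver markers went the other way: 2 of 4 rose and none was negative (median log2 fold change 3.655). Their summed level was 45.9 to 1836 CPM in DJB libraries and 108 to 792 CPM in T2DM libraries. None of the 3 tested endothelial markers was called, and all were positive (median 1.04). The part of these cell types in the members' levels was not tested.

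In subcutaneous fat no member passed the test of DJB against T2DM. None of the 79 was called by edgeR, none had an unadjusted p under 0.05, and DESeq2 and limma called none; the share of all tested genes called by edgeR was 0% and 1259 of them (8.98%) had an unadjusted p under 0.05. The median log2 fold change was 0.13, with a range of -0.42 to 0.84, and 57 were positive. The smallest p was that of Cox4i2, an isoform of subunit 4 that is known to be induced by low oxygen. It had 3.03, 3.70, 3.54, 4.00 and 3.62 CPM in DJB libraries, against 2.52, 3.08, 1.97, 1.503 and 0.894 CPM in T2DM libraries, with a log2 fold change of 0.84 (adjusted p = 0.645, SE 0.47). The groups overlapped at 1 library each. Next were Cox6b2, known as a testis isoform, with 0.78 (adjusted p = 0.773) and Atp5pf with 0.41 (adjusted p = 0.898). DJB library 1 was the lowest of the group, with a median member level of 3.99 log2 CPM, against 4.67 to 5.07 in the other 4 DJB libraries and 4.31 to 4.78 in T2DM libraries. With library totals set by TPM, where the median of all genes moved by -0.21, the members' median was -0.21. Cell content varied here too: 8 markers of B and T cells summed to 7.97 to 2106 CPM in DJB libraries (median 10.2). In T2DM libraries they summed to 7.98 to 74.6 CPM (median 10.3). None of the 7 tested was called, and their median log2 fold change was 4.45. The part of these cells in the members' levels was not tested.

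Whether the effect of bypass differed between depots was tested as an interaction. No member passed (edgeR, adjusted p at least 0.243; 0% of all tested genes), although all 79 estimates were negative, with a median of -2.10, and 70 had an unadjusted p under 0.05, as did 14% of all tested genes. DESeq2 called 0.877% of all tested genes and 3 members, Cox5b (adjusted p = 0.0316), Uqcrq (adjusted p = 0.0213) and Cox7b. It gave no p-value to Atp5f1e, Atp5if1 and Atp5mc1 and could not call them. The smallest p-values in edgeR belonged to Cox5b (-3.35, SE 0.95), Uqcrq (-4.27, SE 1.21) and Atp5f1e (-4.60, SE 1.33). Without visceral T2DM libraries 2 and 5 these became -0.97, -0.77 and -0.77, and none was called. A call in visceral fat and none in subcutaneous fat is therefore not shown to be a difference between depots for these genes by the main test.

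Within T2DM the members were higher in visceral than in subcutaneous fat. Of 79, 65 were higher at an adjusted p of 0.05 and none was lower, 78 were positive, and the median log2 difference was 2.22; higher calls made up 5.44% of all tested genes. The counts were 32 of 39 in complex I (median 2.12), 9 of 9 in complex III (2.30), 11 of 14 in complex IV (2.63) and 13 of 17 in complex V (1.82). This comparison and that of DJB with T2DM in visceral fat share the visceral T2DM libraries. Ndufb6, an accessory subunit of complex I, had the smallest p: 10.8, 203, 17.1, 20.9, 128 and 26.7 CPM in visceral T2DM libraries 1 to 6, against 11.8, 8.15, 9.20, 12.6 and 8.16 CPM in subcutaneous T2DM libraries (log2 difference 2.76, SE 0.59; adjusted p = 0.00702). All visceral libraries but the first were above the subcutaneous ones. Uqcrq averaged 195 ± 387 CPM in visceral T2DM (SD, n = 6) and 9.59 ± 1.43 CPM in subcutaneous T2DM (n = 5), a log2 difference of 4.35 (SE 0.97; adjusted p = 0.00931). Next came Cox8a (2.94), Atp5mc3 (1.97) and Cox5a (2.49), and the largest differences were those of Atp5f1e (4.39), Uqcrq and Atp5mg (3.35). Ndufv3 on chromosome 13 was the exception in direction (-0.08; adjusted p = 0.970), at 0 to 1.09 CPM in visceral and 0.0817 to 0.870 CPM in subcutaneous libraries.

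Markers of other cells differed between the depots of T2DM rats as well. Of the 10 adipocyte markers 7 were higher (median log2 difference 2.89), with sums of 11930 to 58410 CPM in visceral and 3261 to 6337 CPM in subcutaneous libraries, and none was at 0. Of the 5 tested brown or thermogenic markers 3 were higher (4.08), with sums over all 10 of 78.4 to 5285 CPM in visceral libraries and 24.2 to 88.9 CPM in subcutaneous ones, and 1 to 3 of the 10 were at 0 in each of these libraries. Of the 5 tested urothelial markers 4 were higher (7.755), with sums of 3.26 to 1186 CPM in visceral and 1.94 to 4.74 CPM in subcutaneous libraries. All 6 markers of mammary alveolar cells were lower (-7.74), with sums of 260 to 528 CPM in visceral libraries and 517 to 179600 CPM in subcutaneous ones. Of the 13 mitochondrially encoded subunits 5 were higher and none was negative (median 1.775). The part of these cell types in the members' difference was not tested.

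For 7 members, Uqcrq, Ndufa4, Ndufc1, Uqcrb on chromosome 7, Ndufs1, Cox6a1 and Atp5pf, every visceral T2DM library was above every subcutaneous one, a pattern held by 2.56% of all tested genes. Ndufs1 had 80.4 to 640 CPM in visceral T2DM libraries (median 131), against 73.3, 66.1, 57.5, 70.5 and 47.2 CPM in subcutaneous T2DM libraries. Without visceral T2DM libraries 2 and 5, 3 members remained called: Ndufs1 (0.97, SE 0.22; adjusted p = 0.0184), Ndufb6 (0.93, SE 0.25; adjusted p = 0.0456) and Atp5mc3 (0.94, SE 0.25; adjusted p = 0.0477), beside 1.48% of all tested genes called higher in that fit, with 72 of the 79 positive and a median of 0.54. Without visceral library 2 alone 24 members were called (2.79% of all tested genes were higher), and without subcutaneous T2DM library 2 alone 35 (2.07%). With library totals set by TPM, which moved the median of all genes by -0.46, 6 were called, beside 0.635% of all tested genes called higher, and the median was 0.96; of all genes called, 62.4% were higher in visceral fat in the main fit and 18.5% with TPM totals.

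After bypass no member passed the test between the depots. None of the 79 was called by edgeR or DESeq2 and none had an unadjusted p under 0.05, beside 1.32% of all tested genes called in either direction. The median log2 difference, visceral minus subcutaneous, was 0.04, with a range of -0.69 to 0.49. The smallest p-values were those of Cox6b2 (-0.69; adjusted p = 0.604) and Atp5f1b (0.45; adjusted p = 0.666). Atp5f1b had 545, 738, 477, 793, 634 and 595 CPM in visceral DJB libraries, against 357, 377, 404, 505 and 673 CPM in subcutaneous DJB libraries, and the groups overlapped.

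Subunits with a second isoform gave a view of balance within a complex, here as FPKM of the isoform per 100 FPKM of its partner. Cox4i2 stood at 0.634 to 2.93 per 100 Cox4i1 in visceral DJB libraries (median 1.15), against 0.124 and 0.314 in T2DM libraries 2 and 5 and 0.166 to 1.895 in the other T2DM libraries. Ndufa4l2, a paralog of Ndufa4 known to be induced by low oxygen, stood at 2.63 to 15.2 per 100 Ndufa4 in visceral DJB libraries (median 6.75), against 11.8, 0.567, 1.09, 2.99, 1.67 and 4.95 in T2DM libraries 1 to 6. Library 3 lay between libraries 2 and 5. In both pairs the common form was raised more than the isoform in these libraries. Cox4i2 was at 1.72 to 5.92 CPM in DJB libraries, against 5.54 and 6.29 CPM in T2DM libraries 2 and 5, and Ndufa4l2 at 1.54 to 8.11 CPM in DJB libraries, against 10.8 and 7.55 CPM. Cox6b2 stood at 1.10 to 2.29 per 100 Cox6b1 of chromosome 1 in visceral DJB and at 0.448 to 2.50 in visceral T2DM.

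Atp5if1, which blocks ATP synthase from running backwards, was raised in only 1 of the 2 high libraries. It had 12.7 to 18.7 CPM in visceral DJB libraries, against 297 CPM in T2DM library 2. The remaining 5 T2DM libraries, library 5 included, held 10.5 to 18.1 CPM. Per 100 FPKM of Atp5f1b it was at 5.49 to 13.5 in DJB libraries (median 8.94), against 51.0 in T2DM library 2 and 1.46 in library 5. Atp5f1e stood at 12.3 to 24.0 per 100 Atp5f1b in DJB libraries, against 503 in T2DM library 2 and 13.7 in library 5. The implied length is 539 bases for Atp5if1 and 1846 bases for Atp5f1b, and the part of length in these ratios was not tested.

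Subunit c, which forms the rotor ring of ATP synthase, is made from 3 genes with the same mature protein. In visceral fat the shares of both groups overlapped: Atp5mc2 made up 44.4% to 46.9% of the summed FPKM in DJB libraries and 34.8% to 49.5% in T2DM libraries, and Atp5mc3 42.8% to 46.8% in DJB and 40.8% to 50.2% in T2DM. In subcutaneous fat Atp5mc2 led in all libraries but DJB library 5, where Atp5mc3 made up 50.6% and Atp5mc2 43.9%. The share of Atp5mc2 was 43.9% to 65.6% in DJB and 57.5% to 65.8% in T2DM, and that of Atp5mc3 24.7% to 50.6% in DJB and 24.5% to 33.4% in T2DM. Atp5mc1 had group medians between 7.07% and 9.95%. Within T2DM the depots did not overlap in the share of Atp5mc2 or of Atp5mc3; this was chosen after the values were seen and has no test.

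**Figure D4:**
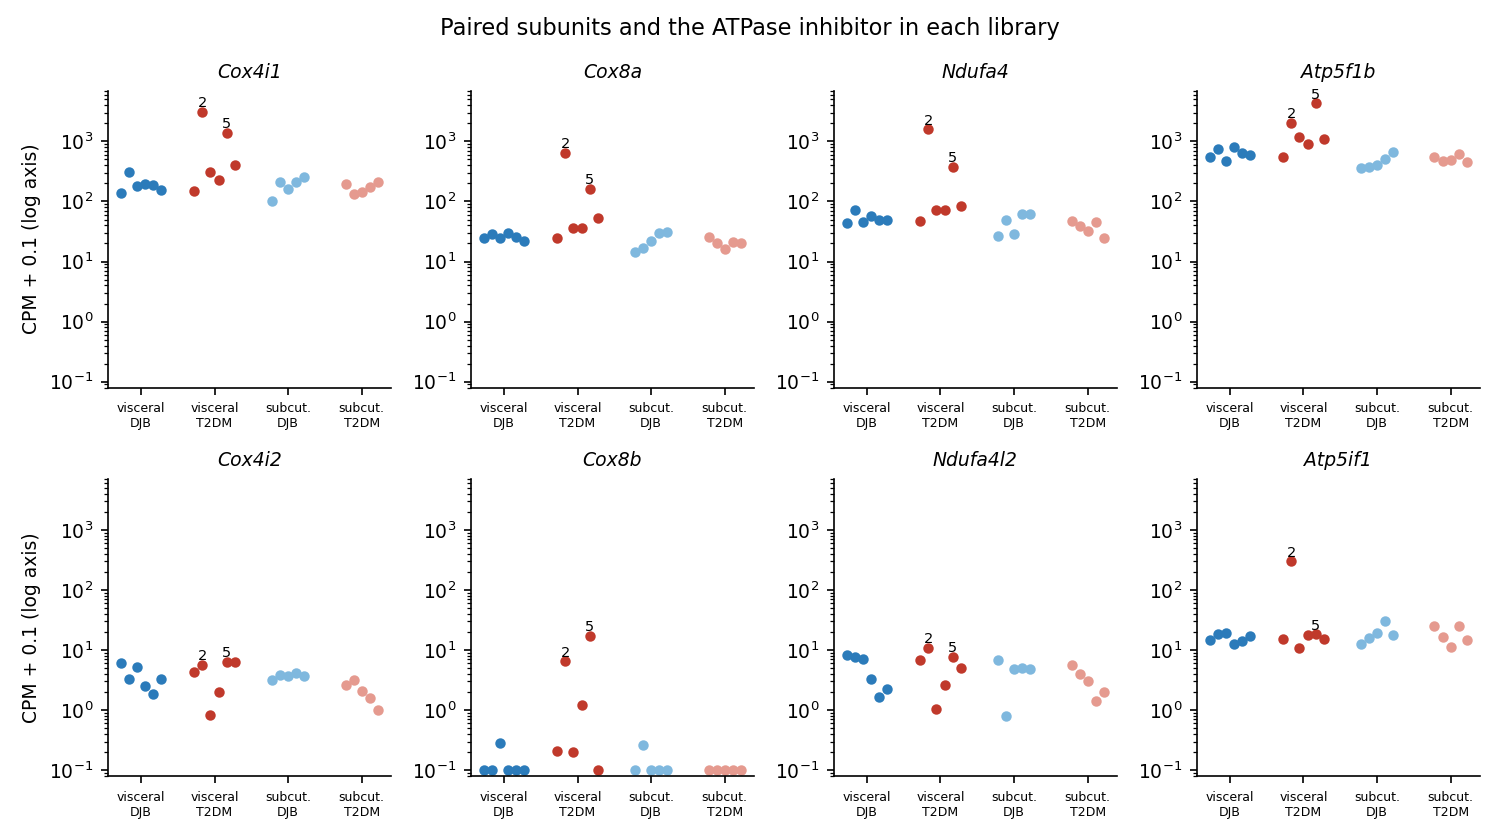
Level of Cox4i1, Cox8a, Ndufa4 and Atp5f1b (top) and of Cox4i2, Cox8b, Ndufa4l2 and Atp5if1 (bottom) in each of the 22 libraries, as CPM + 0.1 on a log axis, 1 point per library, with visceral T2DM libraries 2 and 5 numbered. The top genes are highest in libraries 2 and 5, Cox4i2 and Ndufa4l2 are raised far less there, Atp5if1 is raised in library 2 alone (297 CPM), and Cox8b is highest in library 5 (17.3 CPM).

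The 4 members that were not tested are muscle, heart, thermogenic or testis forms of complex IV subunits. Cox8b, a form known from muscle and brown fat in rodents, had counts in 7 libraries: 17.3 CPM in visceral T2DM library 5, 6.38 in library 2, 1.13 in library 4, and at most 0.182 CPM in visceral T2DM libraries 1 and 3, visceral DJB library 3 and subcutaneous DJB library 2. Per 100 FPKM of Cox8a it reached 16.5 in T2DM library 5. Ucp1 was highest in the same library. Cox7a1 was at most 0.273 CPM in every library, Cox6a2 was detected in subcutaneous DJB library 2 alone (0.625 CPM), and Cox8c in subcutaneous T2DM library 5 alone (0.0447 CPM).

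The 13 subunits encoded in mitochondrial DNA followed the nuclear ones in part. Their summed level was 132800 to 693400 CPM in visceral DJB libraries (median 286900), against 282700, 507400, 80750, 181100, 689300 and 300900 CPM in T2DM libraries 1 to 6 (median 291800). In these scaled sums libraries 2 and 5 were the highest of the T2DM group too, but within the DJB range. The scaling factors below 1 of some libraries raise these sums, and those of the nuclear members too. Among these factors were 0.543 in T2DM library 2, 0.653 in T2DM library 5 and 0.693 in visceral DJB library 2. As an unscaled share of all counts, genes of the mitochondrial chromosome took 28.48% in T2DM library 2 and 45.4% in library 5. Libraries 1 and 6 had 28.52% and 29.0%, so in that share library 2 did not stand above them. The nuclear members summed to 3255 to 4574 CPM in DJB (median 3713) and to 3282, 37900, 5652, 5070, 23240 and 6118 CPM in T2DM libraries 1 to 6. The mitochondrial level per nuclear level was 35.4 to 152 in visceral DJB libraries (median 77.6), against 86.1, 13.4, 14.3, 35.7, 29.7 and 49.2 in T2DM libraries 1 to 6. In the edgeR fit, 1 of the 13 fell in visceral fat, beside 4.27% of all tested genes. It was Mt-nd3 (-3.22, SE 0.89, adjusted p = 0.0440), with 156 to 474 CPM in DJB libraries, against 13730 CPM in T2DM library 2 and 1355 CPM in library 5. The median of the 13 was 0.11. In subcutaneous fat none was called and all 13 were positive (median 1.37), with summed levels of 99870 to 403500 CPM in DJB and 54230 to 157300 CPM in T2DM. The ratio of these sums there was 41.8 to 98.4 in DJB (median 48.9) and 13.7 to 41.0 in T2DM (median 24.9). The groups did not overlap in it, but only just. By complex they overlapped in I (lowest DJB 30.1, highest T2DM 32.6), III (34.1 and 37.4) and V (14.6 and 15.0). In complex IV they did not (146 and 125). The ratio was not tested. The nuclear members summed there to 2388 to 4364 CPM in DJB and 2979 to 3958 CPM in T2DM.

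**Figure D5:**
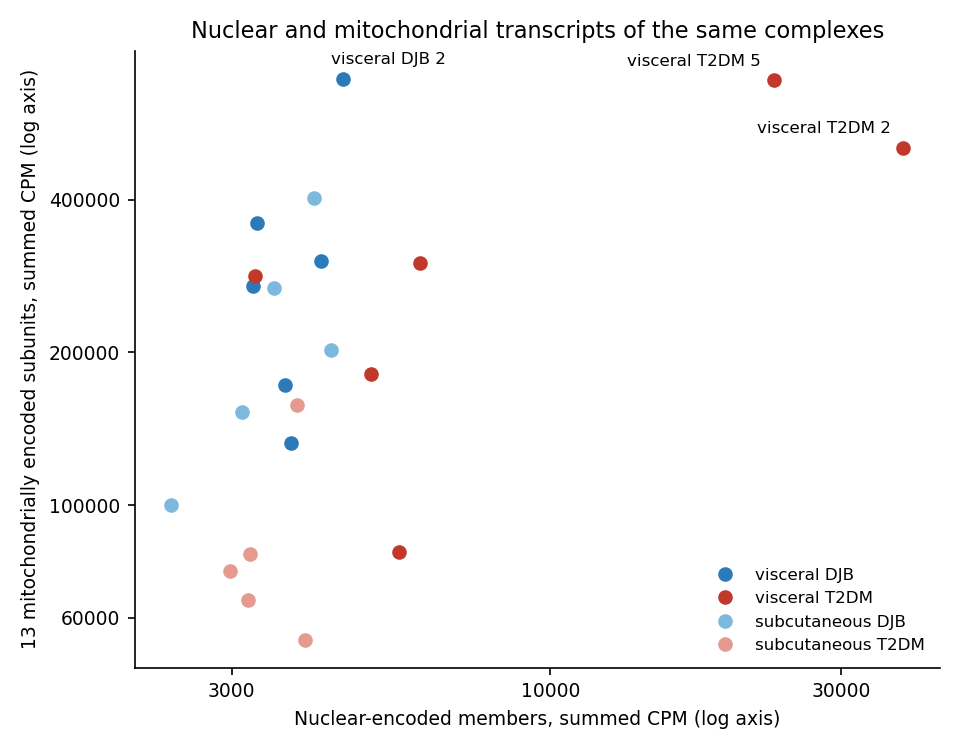
Summed CPM of the 13 mitochondrially encoded subunits against summed CPM of the nuclear-encoded members in each of the 22 libraries (both axes log), coloured by group. Visceral T2DM libraries 2 and 5 lie far to the right, at 37900 and 23240 CPM of nuclear members, while visceral DJB library 2 reaches 693400 CPM of mitochondrial transcripts at 4574 CPM of nuclear ones.

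Genes of complex II and of cytochromes c and c1 fell along with the members in visceral fat, while few assembly factors and regulators were called. Lower calls made up 4.27% of all tested genes. All 4 genes of complex II, succinate dehydrogenase, fell: Sdhb (-1.89), Sdhd (-1.53), Sdhc (-1.25) and Sdha (-1.12). Sdha had 134 to 252 CPM in DJB libraries, against 975 CPM in T2DM library 5 and 273 CPM in library 2. The electron carrier cytochrome c (Cycs, -1.67) and cytochrome c1 of complex III (Cyc1, -2.01) fell as well. Cycs had 98.8 to 144 CPM in DJB libraries, against 1092 CPM in T2DM library 5 and 460 CPM in library 2, and Cyc1 had 39.0 to 63.8 CPM in DJB libraries, against 614 and 358 CPM in the same T2DM libraries. Of the assembly factors 41 were tested; all were negative, 6 fell, and the median was -0.93, with Cox14 lowest among those called (-2.29). Of 12 tested regulators 1 fell: Esrra, at 10.4 to 15.6 CPM in DJB libraries, against 13.2, 31.5, 29.9, 21.5, 84.8 and 14.5 CPM in T2DM libraries 1 to 6 (-1.30, SE 0.35; adjusted p = 0.0416). Nrf1 (0.36; adjusted p = 0.228) and Gabpa (0.34; adjusted p = 0.364) did not pass, and the median of the regulators was -0.24. In subcutaneous fat no gene of these lists was called. These lists carry no test as lists and share their libraries with the members.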

How the data were processed

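The deposited table gives, for each of the 22 libraries and per the file headers, raw read counts per gene and FPKM, the authors' values scaled by gene length and library size. For the 11347 genes with at least 50 counts in every library, the log2 ratio of FPKM to count had a median SD of 0.000488 between libraries once a factor for each library was removed; rows with few counts, such as Cox7a1, departed further, so their FPKM is less certain. Per the submitters' processing notes, reads were trimmed with cutadapt 1.9, checked with FastQC and assigned to mRatBN7.2. The names of aligner and counter: not given in the sources used here. Because coordinates in the table run past the end of chromosome 1 of that build, none is printed from it.

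Counts were tested with edgeR 4.0.16 (R 4.3.3; quasi-likelihood, trimmed-mean (TMM) factors of 0.543 to 1.39, common biological coefficient of variation 0.551), with 1 mean per group over all 22 libraries, on 14019 genes with at least 1 FPKM in at least 5 libraries. P-values were two-sided and adjusted by the Benjamini-Hochberg method, and 0.05 was the threshold. CPM are counts scaled to a common library size with TMM factors, with 0.1 added before a log. Alternatives were DESeq2 1.42.0, limma 3.58.1 on log2(FPKM + 1) and log2(FPKM + 0.1), other scalings, no filter, a lowess fit of log ratio on length (span 0.3), and libraries left out. The edgeR, DESeq2, limma and length steps were tested on simulated data. The closest replicate pair differed far beyond counting noise (chi-square per degree of freedom 134.2), so no library was counted as a duplicate. With these depths counting error is small beside the spread between libraries, except for members under about 1 CPM.

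The members and gene lists were chosen with earlier results of these data known. Named members were the 2 with the highest mean FPKM in each complex, in each comparison the called members with the smallest p (up to 5) and the largest fold changes (up to 3) or else the 3 smallest p, paralogs and isoforms, the ATPase inhibitor, core subunits (1 is counted but not reported by name here), untested members, and up to 6 members a comparison against the common direction. Among the members, 4 symbols have 2 rows, and reads of near-identical copies may be split between them. A row of a pseudogene was dropped by the rule.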

Additional observations from a re-analysis of the deposited data

Results flagged for a closer look

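Of 184 sets of values, 12 had 1 library far from the others by a gap test whose chance rate is about 1 in 20. A set was a member or a complex within a group of 5 or 6 libraries, and not every tested member was included. The 12 flags are not far above that chance rate, so single flags may be chance. All values here are log2 CPM. In visceral DJB library 2 the median of complex III was 5.03, with 4.55 next, and Cox6c was 5.602, with 4.91 next. Visceral T2DM library 2 was high for Atp5if1 (8.22, with 4.19 next), Atp5mc1 (7.64, with 4.66 next), Cox6b2 (2.03, with -0.06 next) and Cox7a2l (10.04, with 7.78 next); these are members that library 5 did not share, since a second high library closes the gap that the test measures. Ndufs1 was high in visceral T2DM library 5 (9.32, with 7.18 next). Subcutaneous DJB library 1 was low for Atp5po (5.32, with 5.97 next), the Cox6b1 row on chromosome 2 (-0.15, with 1.01 next) and Uqcr10 (1.76, with 2.86 next). Subcutaneous DJB library 2, which had the lowest adipocyte markers, was low for Ndufa4l2 (-0.34, with 2.26 next). Ndufs1 was high in subcutaneous DJB library 5 (6.44, with 5.93 next), the library of that group with the highest adipocyte markers (18890 CPM).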

How the results depend on the processing

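The fall in visceral fat kept the sign of its median under every alternative run. The count of calls was close with RLE size factors (63) and DESeq2 (71) and lower in the fits named next. Against 64 members called, 7 were called with TPM totals, 23 with no filter, 29 with the length trend removed, and 0 with limma on log2(FPKM + 1) or log2(FPKM + 0.1), with only the groups compared in the fit (median -1.92), with the replicate block (-1.53), without T2DM libraries 2 and 5 (median log2 fold change -0.31), and without libraries 2, 3 and 4, which was added after seeing the data. Leaving out 1 library gave 0 to 74 calls and medians of -2.20 to -1.10. Over all genes 658 were called, against 115 with TPM totals, 237 with no filter, 1459 with DESeq2 and 0 with limma. In subcutaneous fat the median was -0.21 with TPM totals and 0.02 to 0.26 with 1 library left out, with 0 calls throughout. DESeq2 called 3 members for the interaction; its median was -1.05 with TPM totals, -1.03 and -1.10 with limma, -0.43 without T2DM libraries 2 and 5, -1.14 after removal of the length trend, and -2.35 to -1.26 with 1 library left out. Between depots in T2DM, against 65 calls, there were 6 with TPM totals (median 0.96), 11 and 10 with limma (1.06 and 1.08), 0 with only the groups compared, 11 with the replicate block, 3 without visceral libraries 2 and 5 (0.54) and 24 to 71 with 1 library left out (1.28 to 2.44). In DJB the median ran from -0.07 to 0.13 with 1 library left out. TPM totals moved the median of all genes by 0.06 in visceral fat, -0.21 in subcutaneous fat, 0.28 for the interaction, -0.46 between depots in T2DM and -0.16 in DJB. The cause of these changes was not tested.

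Direction turned for a few members. In visceral fat, without T2DM libraries 2 and 5, it turned for 6: Ndufa1, which was called in the full set, was 0.061, Ndufa8 0.0072, Atp5if1 was 0.11, Atp5mc1 0.20, Cox4i2 0.15 and Ndufa4l2 0.37; with 1 library left out Atp5if1 ran from -2.21 to 0.060 (without T2DM library 2) and Ndufa4l2 from -0.40 to 0.14 (without T2DM library 2; 0.0037 without DJB library 5). Cox4i2 was 0.18 with TPM totals, 0.0897 and 0.15 with limma and 0.19 with the length trend removed, and Ndufa4l2 0.16, 0.036, 0.048 and 0.29. Between depots in T2DM it turned for 6 uncalled members without visceral libraries 2 and 5: Ndufa1 was -0.20, Ndufb11 -0.0043, Atp5if1 was -0.32, Atp5mc1 -0.17, Atp5mc2 -0.22 and Ndufs8 -0.060; Atp5if1 was -0.18 without libraries 2, 3 and 4 and ran from -0.29 (without library 2) to 1.98 with 1 left out. Atp5mc2 was -0.29 with TPM totals, -0.017 and -0.018 with limma, -0.18 with the length trend removed and -0.017 (without library 2) to 0.76 with 1 left out; Ndufa4l2 was -0.016 with TPM totals. Ndufv3 on chromosome 13 ran from -0.79 to 0.47 with 1 left out, and was positive where that was visceral 1, 4 or 6 or subcutaneous 3 or 4. The correlations of same-numbered libraries ran from -0.15 to 0.35, and at most 1 library in a comparison correlated best with its own number. With 5 or 6 pairs per comparison, and cell content that differs between depots, these correlations cannot show whether same-numbered libraries share a rat. Members under about 1 CPM are limited by depth.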

Other observations

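Ribosomal protein genes, another family of short and highly expressed transcripts, showed the same 2 libraries unequally. Of 88 tested genes of the cytosolic ribosome, 21 fell in visceral fat (DJB against T2DM, edgeR), 87 were negative and the median log2 fold change was -1.95. Lower calls made up 4.27% of all tested genes in that fit. Their summed level was 15690 to 28910 CPM in visceral DJB libraries, against 318200 CPM in T2DM library 2 and 39050 CPM in library 5. The cytosolic ribosome was thus above the DJB range in both, by far the most in library 2. Of 74 tested genes of the mitochondrial ribosome, which translates the 13 mitochondrially encoded subunits, 15 fell and all 74 were negative, with a median of -1.12. Both lists were chosen with earlier results of these data known.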
